A study of Homo sapiens with 6 samples.

Results

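The 30 genes described here encode the enzymes that carry glucose to pyruvate and lactate, the bifunctional enzymes and pyruvate dehydrogenase kinases that set the rate of that flow, and the carrier and complex through which pyruvate enters the mitochondrion. They were chosen by name, as the rows of the count table with these 30 gene symbols, out of 58870 genes in the table. The rule itself used no measured value. The samples were 6 RNA-seq libraries of WM164, a long-established line of human melanoma cells. The cells of 3 libraries, labelled GFP, carried green fluorescent protein. In the 3 libraries labelled T-MGM, the cells carried a tethered dimer, in which the melanocyte form of the transcription factor MITF and the small MAF protein MAFG are joined by a flexible linker into 1 polypeptide. Per the study's methods, both were delivered by lentivirus behind the constitutive EF1α promoter, so the dimer was added to the cells' own MITF and MAFG, and all cells shared the WM164 background. Nothing in the labels says that the libraries came from separate cultures, so the p-values measure the spread between these libraries, which may be technical.

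The GFP libraries held 35057239 to 38738065 counts each and those labelled T-MGM 44577774 to 59250663. The labels could not be checked from the 2 joined genes: the mean normalized count of MAFG was 2458 under the GFP label and 2358 under the T-MGM label (log2 fold change -0.06, adjusted p = 0.236 by DESeq2), and that of MITF was 19161 and 20269 (log2 fold change 0.08, adjusted p = 4.8e-07). Directions below therefore rest on the labels. All 7 melanocyte lineage genes examined had counts, and their normalized counts summed to 123675 to 124804 for GFP and 114950 to 117804 for T-MGM as labelled. Among them the pigment enzyme gene DCT fell from 11460 to 2051 normalized counts (log2 fold change -2.49), more than any glycolysis or pyruvate gene moved. MLANA (-0.68), the pigment enzyme gene TYR (-0.35) and S100B (-0.21) also fell. MITF, SOX10 (0.11) and PMEL (0.05) rose slightly, and SOX10 (-0.04) and PMEL (-0.02) were below 0 after correction for GC content and transcript length. The 7 fibroblast markers summed to 389 to 410 and 738 to 815, and LUM held most of that sum, with means of 304 and 516 normalized counts. Of the 5 with an adjusted p, 4 rose, PDGFRA (log2 fold change 1.4973), PDGFRB (1.37), COL1A1 (1.23) and LUM (0.77). PDGFRB lost its call after correction for GC content and length (adjusted p = 0.0768 by DESeq2). DCN did not pass (log2 fold change 0.11, adjusted p = 0.939 by DESeq2). COL1A2 had 1, 5 and 0 counts in GFP libraries and 1, 0 and 1 in those labelled T-MGM. COL3A1 had at most 3 counts in any library. Keratinocyte markers summed to 847 to 928 and 864 to 1019, endothelial markers to 22.8 to 41.1 and 34.7 to 50.7, and leukocyte markers to 2.17 to 13.7 and 4.43 to 9.12, and none of these 3 lists had a gene that passed the test. KRT10 held nearly all of the keratinocyte sum, with means of 891 and 954 normalized counts. KRT5, KRT1 and TP63 had at most 3 counts in any library, and KRT14 at most 5. The part of the fibroblast markers in the results below was not tested.

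Glycolysis splits glucose into a pair of pyruvate molecules in the cytosol. An early phase spends ATP to phosphorylate and cleave the sugar, and a payoff phase returns ATP and NADH. Pyruvate is then either reduced to lactate by lactate dehydrogenase, which regenerates NAD+, or carried into mitochondria and oxidised to acetyl-CoA by the pyruvate dehydrogenase complex, which the PDH kinases switch off by phosphorylation. Many steps have several isoenzymes encoded by separate genes, and tumour cells, melanoma among them, commonly make much lactate even with oxygen present. Several of these genes are classical targets of hypoxia-inducible factor, whose binding sites share the core ACGTG or GCGTG.

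Of the 29 genes with an adjusted p, 27 passed the test at an adjusted p of 0.05 by DESeq2, and 22 of these were higher and 5 lower in the libraries labelled T-MGM. Among all 19135 genes tested, 38.4% passed, 19.2% higher and 19.2% lower. In the same 27 genes the 3 GFP values and the 3 values labelled T-MGM did not overlap, against 46.8% of all genes tested. The changes were small: the median log2 fold change of the 29 genes was 0.30, with a range of -0.40 to 1.52, beside a median of -0.0027 over all genes tested. Only PDK2 passed the 2-fold limit that the study also applied, which 4.63% of all genes tested passed, 3.26% higher and 1.36% lower, and 10 of the 29 passed with a log2 fold change of at least 0.4, against 8.17% of all genes. The 20 passing genes of cytosolic enzymes were 18 higher and 2 lower, with a median of 0.37 over 21. Of the 8 tested genes of mitochondrial proteins, 4 were higher and 3 lower, with a median of 0.12. High counts make small changes easier to call, so abundant genes were also set apart. Of the 6577 genes whose normalized count averaged 1000 or more, 68% passed, 29.7% higher and 38.3% lower, with a median log2 fold change of -0.03 and an upper quartile of 0.12. Of the 24 glycolysis and pyruvate genes at that level, 23 passed, 20 of them higher, and 18 lay above that upper quartile. The median of the members depends on the scale: it was 0.16 when TPM, a value per transcript length and library, was tested with limma, and on that scale the median over all genes averaging 50 or more normalized counts was -0.13 in place of -0.01. There 20 of the genes passed, and HK2, PFKP, PFKFB3, ENO1, PDK1, PDK3 and PDHB did not. Each of the 15 genes that passed higher there had a lower log2 fold change on TPM than on counts. The TPM values were 0.18 for HK1, 0.12 for GPI, 0.38 for PFKL, 0.46 for PFKFB4, 0.35 for ALDOA and 0.24 for ALDOC. They were 0.31 for TPI1, 0.23 for GAPDH, 0.35 for PGK1, 0.21 for PGAM1 and 0.58 for ENO2. For ENO3, PKM, LDHA and PDK2 they were 0.52, 0.23, 0.31 and 1.34. The 5 that passed lower lay farther below 0, PFKM (-0.26), LDHB (-0.33), DLAT (-0.41), MPC1 (-0.47) and MPC2 (-0.28). ALDOC and MPC1 lost their calls on TPM with no filter on low values (adjusted p = 0.0895 and 0.0571 by limma).

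**Figure D1:**
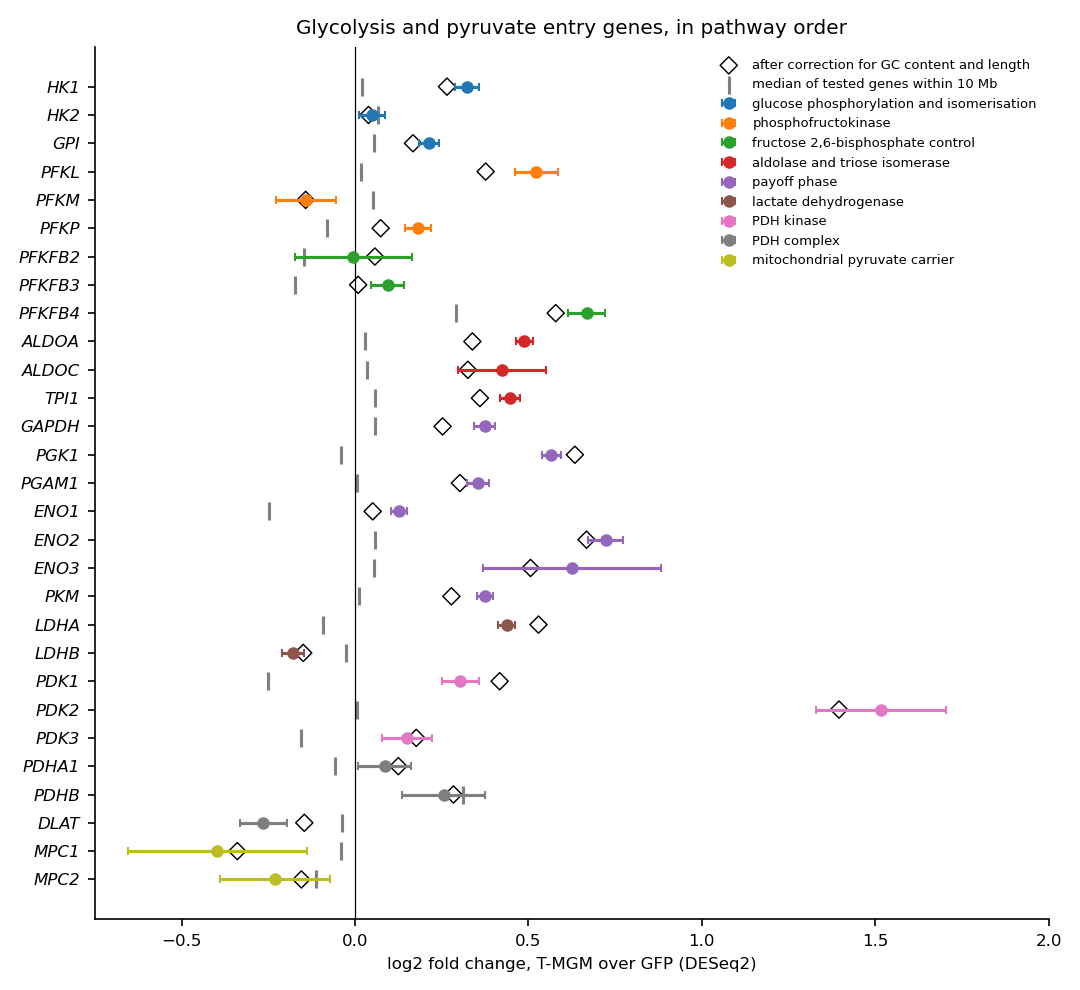
Log2 fold change of each tested gene, libraries labelled T-MGM over GFP (DESeq2, x axis), in pathway order from HK1 to MPC2, with bars for the 95% confidence interval, diamonds for the value after correction for GC content and transcript length, and grey ticks for the median of tested genes within 10 Mb. Most points lie right of 0, PDK2 stands farthest out at 1.52, and PFKM, LDHB, DLAT, MPC1 and MPC2 lie to the left.

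**Figure D2:**
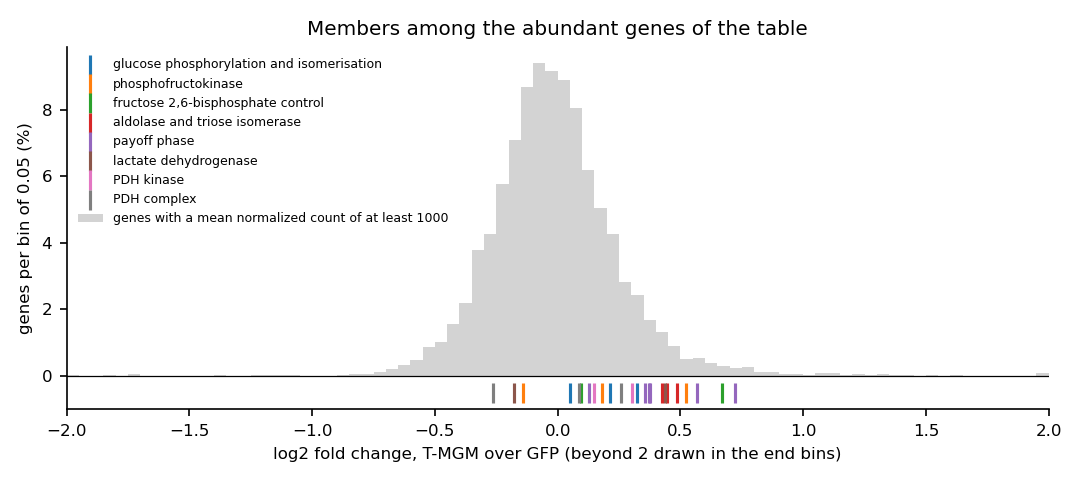
Distribution of log2 fold changes over the 6577 genes averaging 1000 or more normalized counts (percent of genes per bin, y axis), with a tick for each of the 24 glycolysis and pyruvate genes among them, by role. The genes' ticks centre on 0.31 and the distribution on -0.03.

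PGK1, ALDOA and LDHA had the largest test statistics of the 29 genes, so the stretch before each start site is shown here, from RefSeq on GRCh38.p14, all on the plus strand. Capitals mark matches to the motifs searched, which were ACGTG and GCGTG (hypoxia response element cores), CACGTG and CATGTG (E-boxes, the kind of site that MITF binds), TGCTGA (a part of the longer site that MAF proteins bind), TGAGTCA (AP-1) and TATAAA, all on both strands except TATAAA. The E-box CACGTG contains ACGTG.
PGK1, chrX:78103998-78104247: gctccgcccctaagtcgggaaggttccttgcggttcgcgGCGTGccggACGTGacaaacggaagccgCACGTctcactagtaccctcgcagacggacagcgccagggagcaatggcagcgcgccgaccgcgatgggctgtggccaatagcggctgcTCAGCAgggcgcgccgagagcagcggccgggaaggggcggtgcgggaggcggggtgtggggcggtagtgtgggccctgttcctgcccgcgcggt
ALDOA, chr16:30065510-30065759: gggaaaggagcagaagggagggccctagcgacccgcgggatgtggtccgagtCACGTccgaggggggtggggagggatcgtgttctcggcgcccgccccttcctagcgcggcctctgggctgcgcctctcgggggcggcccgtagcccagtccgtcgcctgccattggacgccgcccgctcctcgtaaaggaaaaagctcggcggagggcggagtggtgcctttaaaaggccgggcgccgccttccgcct
LDHA, chr11:18394313-18394559: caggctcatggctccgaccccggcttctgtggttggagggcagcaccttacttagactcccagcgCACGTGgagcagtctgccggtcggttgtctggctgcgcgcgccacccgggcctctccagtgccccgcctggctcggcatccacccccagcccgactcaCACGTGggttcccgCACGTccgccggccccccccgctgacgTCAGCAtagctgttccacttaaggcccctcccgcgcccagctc
The PGK1 stretch held GCGTG once, then ACGTG, further on the reverse complement CACGT and, nearest the start, the reverse complement of the MAF motif. LDHA held CACGTG at -185 and at -87 from its start site, a further CACGT at -73 and the reverse complement of the MAF motif at -46, whereas ALDOA held a single CACGT at -198.

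A RefSeq window of 300 bases, from 250 before to 50 after the start, was matched for 29 of the 30 genes and for 19095 genes in all. ACGTG was in 14 of the 29 windows (48.3%) and in 23.4% of all windows. GCGTG was in 17 (58.6%) and in 42.6% of all, and at least 1 of these cores was in 23 (79.3%) and in 54.5%. CACGTG was in 6 of the 29, those of PFKFB3, ALDOC, GAPDH, LDHA, PDK2 and PDHB (20.7%), against 8.36% of all windows. The M-box type E-box CATGTG was in 1 (3.45%, ENO2) against 9.12%, and the MAF motif was in 3 (10.3%, PFKFB3, PGK1 and LDHA) against 16%. These matches are a description of letters in the sequence, and binding was not measured in these libraries. The comparison with all windows was not matched for base composition or expression level. Whether the shares differ from those of promoters alike in both was not tested, so they do not show an enrichment of hypoxia or other sites. Whether a motif goes with the direction of change was not tested.

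Glucose phosphorylation is the entry step, and HK1 and HK2 encode the hexokinases of most cells. HK1 stood at 14730, 14973 and 14918 normalized counts in GFP libraries and at 18532, 18952 and 18372 in those labelled T-MGM. HK1 rose by a log2 fold change of 0.32 (SE 0.02, adjusted p = 9.02e-77 by DESeq2). HK2, the inducible hexokinase of many tumours, changed far less: its normalized counts were 12318, 12191 and 12464 against 12806, 12952 and 12506, a log2 fold change of 0.05 (adjusted p = 0.03), and the direction turned to below 0 with total-count scaling (-0.0044) and on the TPM scale (-0.04). The HK2 call was also lost without GFP replicate 1 (adjusted p = 0.0909) or 2 (0.161), or without the T-MGM replicate 1 (0.102) or 2 (0.127). GPI, which converts glucose 6-phosphate to fructose 6-phosphate, rose from 21101 ± 145 to 24479 ± 180 normalized counts (mean ± SD, n = 3 libraries each; log2 fold change 0.21).

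Phosphofructokinase commits the sugar to glycolysis and has liver (PFKL), muscle (PFKM) and platelet (PFKP) forms. PFKL had normalized counts of 3085, 3124 and 3179 in GFP libraries and 4534, 4375 and 4569 in those labelled T-MGM, a log2 fold change of 0.52 (SE 0.03, adjusted p = 5.66e-60). Its value was 0.38 after correction for GC content and length. PFKP, the most abundant form by TPM, rose from 12451 ± 267 to 14119 ± 52.2 normalized counts (log2 fold change 0.18). Its value was 0.07 after correction for GC content and length, and 0.04 on the TPM scale, where it did not pass (adjusted p = 0.33 by limma). PFKM went the other way, from 1967 ± 32.9 to 1786 ± 57.1 (log2 fold change -0.14, adjusted p = 0.00452), and without T-MGM replicate 3 its adjusted p was 0.067. SENP1 overlaps PFKM on the opposite strand and had a log2 fold change of -0.12; its part in the PFKM count was not tested.

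The bifunctional PFKFB enzymes make and remove fructose 2,6-bisphosphate, the strongest activator of phosphofructokinase. PFKFB4 had normalized counts of 3968, 4072 and 4009 in GFP libraries and 6413, 6512 and 6231 in those labelled T-MGM. With a log2 fold change of 0.67 (SE 0.03, adjusted p = 4.63e-126) it was among the most changed genes of the pathway. Its count is uncertain in 2 respects: UCN2 overlaps PFKFB4 on the same strand and itself went from 4666 to 7257 normalized counts (log2 fold change 0.64), and the median of the 173 tested genes within 10 Mb of PFKFB4 was 0.29. Whether either bears on the PFKFB4 value was not tested. PFKFB3 rose from 5666 ± 37.5 to 6046 ± 61.3 (log2 fold change 0.09, adjusted p = 0.000533), but after correction for GC content and length the log2 fold change was 0.0091 (adjusted p = 0.834), and its call was also lost with total-count scaling (adjusted p = 0.202). PFKFB2 had a mean of 558 ± 41.6 and 555 ± 26.6 normalized counts (log2 fold change -0.0044, adjusted p = 0.978), with a 95% interval from -0.17 to 0.16.

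Aldolase cleaves fructose 1,6-bisphosphate into a pair of triose phosphates, which triose phosphate isomerase (TPI1) interconverts. ALDOA had normalized counts of 74208, 72096 and 72194 in GFP libraries and 101999, 102217 and 102232 in those labelled T-MGM. ALDOA rose by 0.49 (log2 fold change, SE 0.01), with an adjusted p that DESeq2 gave as 0, below the smallest number it can hold, and by 0.34 after correction for GC content and length. ALDOC, the brain form, rose from 979, 941 and 883 to 1174, 1352 and 1236 (log2 fold change 0.42, SE 0.06, adjusted p = 3.28e-10). TPI1 rose from 24760, 24560 and 24278 to 33072, 33907 and 33314 (log2 fold change 0.45, adjusted p = 2.71e-200). In each of these 3 genes every library labelled T-MGM lay above every GFP library.

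**Figure D3:**
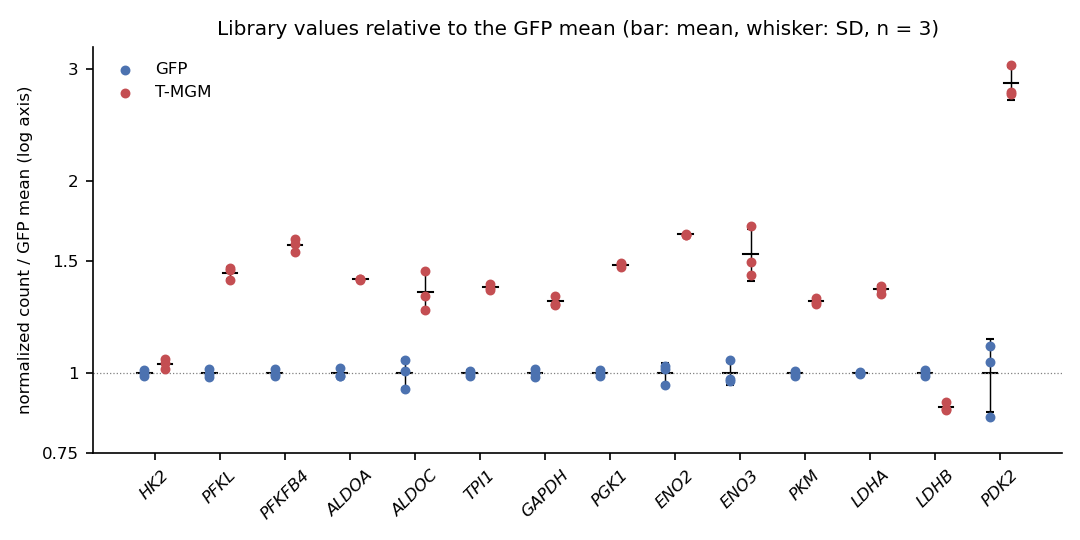
Normalized count of each library divided by the gene's GFP mean (log axis) for 14 genes from HK2 to PDK2, blue for GFP and red for T-MGM as labelled, with the mean and SD of each group of 3. All red points lie above the blue ones except those of LDHB, which lie below, and the red points of PDK2 lie highest.

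The payoff phase held 7 genes, and all 7 passed in the higher direction on normalized counts, as did 19.2% of all genes tested and 29.7% of those averaging 1000 or more counts. GAPDH, which makes NADH and is widely used as a reference gene, had normalized counts of 331139, 326473 and 321607 in GFP libraries and 417034, 431986 and 419590 in those labelled T-MGM. GAPDH rose by a log2 fold change of 0.37 (SE 0.02, adjusted p = 1.32e-124), and its TPM was 6283 ± 77.2 and 7373 ± 240, rank 12 among protein-coding genes in both groups. PGK1, the first ATP-making step, had normalized counts of 26040, 25760 and 25534 against 38172, 37834 and 38426. Its log2 fold change was 0.57 (SE 0.01, adjusted p again given as 0), 0.63 after correction for GC content and length, and 0.35 on the TPM scale. PGAM1, a phosphoglycerate mutase, rose from 16007 ± 171 to 20463 ± 121 (log2 fold change 0.35).

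The enolases did not move alike. ENO1, the abundant form, rose from 110776 ± 850 to 120962 ± 997 normalized counts (log2 fold change 0.13, adjusted p = 5.1e-27), but it was at 0.05 after correction for GC content and length (adjusted p = 3.92e-05), at -0.03 on the TPM scale and at 0.04 on TPM rescaled to protein-coding genes (adjusted p = 0.0434 by limma). The median of the tested genes within 10 Mb of ENO1 was -0.25. ENO2, the neuronal form, had normalized counts of 4931, 4984 and 4647 in GFP libraries and 7999, 8024 and 8009 in those labelled T-MGM, a log2 fold change of 0.72 (SE 0.03, adjusted p = 1.35e-164). LRRC23 overlaps ENO2 on the same strand and went from 159 to 246 normalized counts (log2 fold change 0.63), far below the counts of ENO2. Reads of this pair may be hard to tell apart, and the part of LRRC23 in the ENO2 value was not tested. ENO3, the muscle form, was low, at 185, 198 and 184 against 269, 282 and 322, and rose by 0.63 (SE 0.13, adjusted p = 9.22e-06). PFN1, which lies on the opposite strand at ENO3, was at 53394 and 61905 normalized counts (log2 fold change 0.21), and its part in the ENO3 value was not tested. PKM, the pyruvate kinase of most tissues and tumours, rose from 167597, 170559 and 169463 to 218805, 222110 and 217428 (log2 fold change 0.38, adjusted p = 9.87e-204); the table counts its splice forms together.

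The lactate dehydrogenase subunits moved in opposite directions. LDHA encodes the muscle-type subunit, associated with lactate production, and LDHB the heart-type subunit. LDHA stood at 83266, 82548 and 82921 normalized counts in GFP libraries and at 113754, 110515 and 112478 in those labelled T-MGM. LDHA rose by a log2 fold change of 0.44 (adjusted p = 7.39e-263), by 0.53 after correction for GC content and length, and by 0.31 on the TPM scale. LDHB was at 21491, 21742 and 21311 against 18827, 19357 and 18906 and fell by 0.18 on the log2 scale (adjusted p = 9.91e-27), a direction and call that it kept in all 18 alternatives. The log2 ratio of LDHA to LDHB was higher by 0.61 in the libraries labelled T-MGM, which is 1.53-fold.

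The PDH kinases inactivate pyruvate dehydrogenase, and the 3 that were detected were all higher in the libraries labelled T-MGM, PDK1 and PDK3 not passing on the TPM scale. PDK2 had normalized counts of 323, 250 and 305 in GFP libraries and 807, 803 and 892 in those labelled T-MGM. Its log2 fold change of 1.52 (SE 0.10, adjusted p = 2.94e-55) corresponds to 2.86-fold (95% confidence interval 2.51 to 3.26). The value after correction for GC content and length was 1.40, and PDK2 stayed past the 2-fold limit in all 18 alternatives. PDK1, a classical hypoxia-inducible gene, rose from 4744 ± 129 to 5855 ± 54.7 (log2 fold change 0.30, adjusted p = 7.97e-28), while the median of tested genes within 10 Mb of PDK1 was -0.25. On TPM its adjusted p was 0.192, and 0.0509 with TPM rescaled to protein-coding genes (limma). PDK3 rose from 2587 ± 38.1 to 2868 ± 90.6 (log2 fold change 0.15, adjusted p = 0.000241), but its adjusted p was 0.633 on TPM and 0.32 on TPM rescaled to protein-coding genes (limma). PDK4, the kinase of the fasting response, had 3, 0 and 0 counts in GFP libraries and 1, 1 and 0 in those labelled T-MGM, at or under the limit that a count of 0 allows (3 counts), so no difference was detectable at this depth.

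The pyruvate dehydrogenase subunits and the carrier gave smaller and mixed values. DLAT, the E2 subunit, had normalized counts of 3094, 3092 and 3085 in GFP libraries and 2532, 2582 and 2601 in those labelled T-MGM, and fell by 0.26 on the log2 scale (adjusted p = 2.07e-13), and by 0.15 after correction for GC content and length. PDHB, the E1 beta subunit, rose from 1105 ± 78.2 to 1321 ± 73.2 (log2 fold change 0.26, adjusted p = 0.000129), beside a median of 0.31 over the 136 tested genes within 10 Mb, and did not pass on TPM (adjusted p = 0.178 by limma). PDHA1, the E1 alpha subunit that the kinases phosphorylate, had 2747 ± 65.8 and 2912 ± 132 and did not pass (log2 fold change 0.09, adjusted p = 0.0692), although it passed after correction for GC content and length (log2 fold change 0.12, adjusted p = 0.00465), with TMM factors (0.0374) and without T-MGM replicate 2 (0.0257), and was at -0.03 on the TPM scale. MPC1 and MPC2 form the mitochondrial pyruvate carrier. MPC1 had normalized counts of 347, 259 and 286 against 240, 209 and 227 and fell by 0.40 on the log2 scale (SE 0.13, adjusted p = 0.00822), but its adjusted p was 0.145 without GFP replicate 1, the highest library, and 0.0594 without T-MGM replicate 2. MPC2 was at 613, 597 and 584 against 494, 527 and 508 (log2 fold change -0.23, adjusted p = 0.0133), and its adjusted p was 0.0689 leaving out GFP replicate 1, 0.0725 leaving out T-MGM replicate 1, 0.0525 leaving out T-MGM replicate 3 and 0.129 after correction for GC content and length. DCAF6, on the opposite strand at MPC2, had a log2 fold change of -0.19.

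Isoenzyme balance was then compared within each library, which removes library size from the values. In 10 of 12 gene pairs the log2 ratios did not overlap between groups. Among single genes tested 46.8% did not overlap, which is a different measure, and no such share was computed over other gene pairs. Several genes enter more than 1 pair, and the genes were already counted singly above, so the pairs are not independent results. Each of the 10 had an exact two-sided permutation p of 0.1, the smallest that 3 against 3 libraries allow, and an adjusted p of 0.12 over the 12 pairs, so no pair could pass 0.05. The ratio of HK2 to HK1 was lower by 0.27 on the log2 scale, of PFKM to PFKL by 0.66 and of PFKP to PFKL by 0.34. The ratio of ENO2 to ENO1 was higher by 0.60 and of PFKFB4 to PFKFB3 by 0.58. PDK1 to PDK2 differed by -1.21 and PDK3 to PDK2 by -1.37. LDHA to PDHA1, the enzymes at the pyruvate branch point, differed by 0.35, and PDK1 to PDHA1 by 0.22. The ratios of ALDOC to ALDOA (-0.06) and of MPC1 to MPC2 (-0.16) overlapped between groups.

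Shares of TPM within a family estimate how much of each step's transcripts the isoenzymes held. LDHA held 69.0 ± 0.215% of LDHA and LDHB transcripts in GFP libraries and 77.5 ± 0.544% in those labelled T-MGM (SD, n = 3 each). HK1 held 65.8 ± 0.252% and 69.2 ± 0.414% of the 2 hexokinases, and PFKL 16.8 ± 0.446% and 21 ± 0.551% of the 3 phosphofructokinases. PFKFB4 held 71.0 ± 0.938% and 77.3 ± 0.958%, and ENO2 3.35 ± 0.0857% and 5.03 ± 0.0557%. The high PFKFB4 share is uncertain. Mean normalized counts of PFKFB4 and PFKFB3 were 4016 and 5666 in GFP libraries and 6385 and 6046 in those labelled T-MGM. UCN2 overlaps PFKFB4 on the same strand, and its part in the PFKFB4 share was not tested. PDK2 held 10.6 ± 4.07% of the PDH kinases in the GFP libraries, where single libraries ran from 6.04% to 13.8%, and 24.2 ± 2.80% in those labelled T-MGM. The rise of 13.5 percentage points by TPM was 4.89 points when shares were taken from normalized counts. ALDOA held 99.0% and 99.1% of the aldolases, which overlapped.

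**Figure D4:**
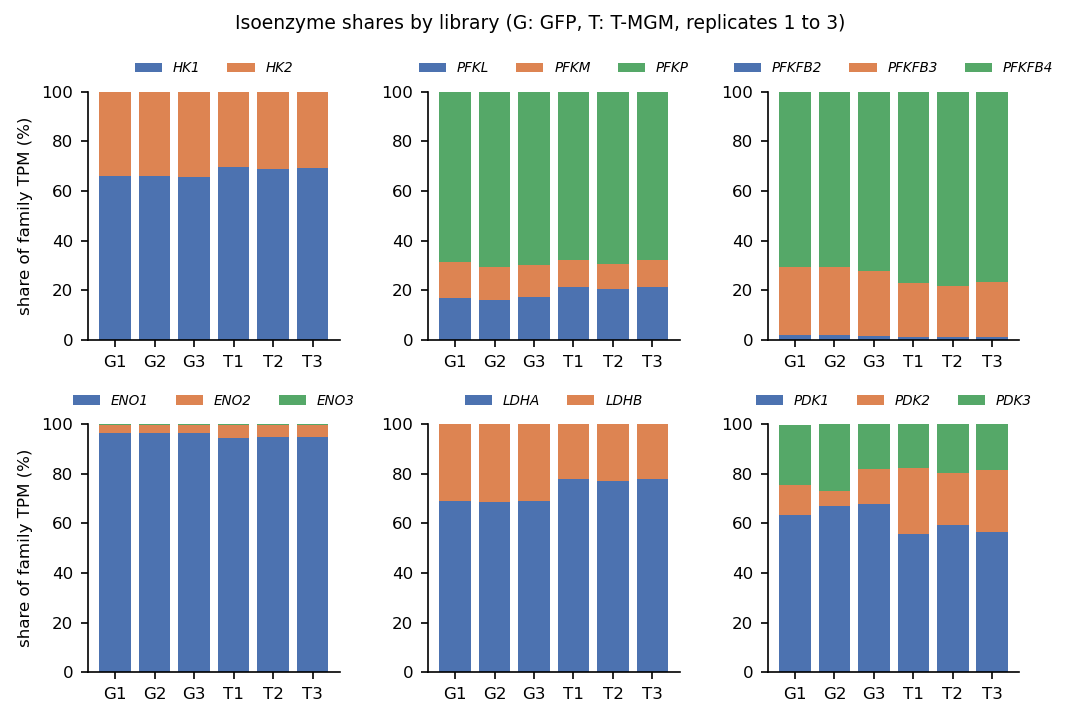
Stacked share of family TPM held by each isoenzyme (percent, y axis) in each library, with G for GFP and T for T-MGM as labelled, in 6 families from the hexokinases to the PDH kinases. LDHA runs from 68.7% to 69.2% in GFP libraries and from 76.9% to 78.0% in those labelled T-MGM, and PDK2 from 6.04% to 13.8% and from 21.04% to 26.4%.

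In all, the 21 cytosolic genes summed to 13266 ± 82.2 TPM in GFP libraries and 15367 ± 353 in those labelled T-MGM, and their share of the TPM of protein-coding genes was 2.16 ± 0.0228% and 2.63 ± 0.0304%, a ratio of 1.22. This sum mostly follows a few abundant genes. GAPDH went from 6283 to 7373 TPM, PKM from 1634 to 1915 and ALDOA from 1301 to 1662, while ENO1 went from 1412 to 1382. The 9 mitochondrial genes summed to 133 ± 2.69 and 132 ± 4.73 TPM, and their share was 0.0216% and 0.0226%. Protein-coding genes together took 61.3% to 61.8% of TPM in GFP libraries and 57.9% to 59.2% in those labelled T-MGM, while the small cytoplasmic RNA RN7SL1 took 13.4% to 13.8% and 15.8% to 16.1%. TPM values are shares of a fixed total. Rescaled to protein-coding genes, an alternative chosen after seeing the data, TPM gave a median log2 fold change of 0.23 over the 29 genes in place of 0.16, and ENO1 (0.04), HK2 (0.03, adjusted p = 0.554 by limma) and PDHA1 (0.04, adjusted p = 0.491) were above 0.

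Neighbouring genes and sequence copies were also examined. The median log2 fold change of tested genes within 10 Mb ran from -0.25 to 0.31 over the 29 genes, on 33 to 216 neighbours, and 22 of the 29 lay above and 7 below their neighbours' median. For 6 genes that median was beyond 0.15 in either direction. Rows for pseudogenes of these genes held at most 0.688% of the parent gene's counts (TPI1), and the 62 GAPDH pseudogene rows held at most 0.0971%. In the annotation, 19 of the 30 genes have a gene on the opposite strand and 13 one on the same strand, and 5 have neither. A non-stranded library kit is named in the labels and a strand-specific one in the study's methods, so counts of genes that overlap others are uncertain.

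Genes of the wider pathway did not move as a block. Of 25 further glycolysis and pyruvate genes, most of them tissue-specific isoenzymes, 12 had no adjusted p, and 9 of the 13 tested passed, 3 higher and 6 lower, beside 38.4% of all genes and 68% of those averaging 1000 or more counts, with a median log2 fold change of -0.12. GAPDHS, the germ-cell form of GAPDH, fell from 570 ± 16.6 to 220 ± 41.9 normalized counts (log2 fold change -1.38, adjusted p = 7.64e-31). PDP1, the phosphatase that reverses PDH kinase action, was at 3233, 3051 and 3030 against 2006, 2068 and 2014 and fell by 0.61 on the log2 scale (SE 0.04, adjusted p = 1.94e-55). DLD, the E3 subunit of pyruvate dehydrogenase, fell by 0.24, PDP2 by 0.19, the E3-binding subunit PDHX by 0.12 and BPGM, which makes 2,3-bisphosphoglycerate, by 0.43. After correction for GC content and length DLD was at -0.08 and PDHX at -0.0030, where PDHX no longer passed (adjusted p = 0.972). The 3 that rose on normalized counts were HKDC1 (0.60), ADPGK (0.12) and PDPR (0.09), and the ADPGK values overlapped between groups. Mean TPM of all 3 was lower in the libraries labelled T-MGM. It went from 0.99 to 0.867 for HKDC1, from 16.6 to 16 for ADPGK and from 9.89 to 9.44 for PDPR.

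Around glycolysis, 6 of 8 glycogen and glucose phosphate genes passed, near the share of abundant genes (68%), 5 higher and 1 lower, with a median log2 fold change of 0.23. PYGB (0.11), a glycogen phosphorylase, and PGM2 (-0.16), the gene that fell, lost their calls after correction for GC content and length (adjusted p = 0.594 and 0.732). The glycogen branching enzyme GBE1 rose from 3147 ± 51.2 to 5262 ± 138 normalized counts (log2 fold change 0.74, adjusted p = 8.05e-125). Glycogen synthase GYS1 rose from 3157 ± 113 to 4605 ± 156 (0.54, adjusted p = 5.61e-55), PGM1, the phosphoglucomutase that links glycogen to glucose 6-phosphate, by 0.39 and UGP2, which makes UDP-glucose, by 0.36. Of 6 pentose phosphate genes, 4 passed, 2 higher and 2 lower (median -0.06), again near the 68% of abundant genes, with PGD, the second NADPH-making step, at a log2 fold change of -0.33 and RPE, an epimerase of the pathway, at -0.34 (-0.16 after correction for GC content and length). With that correction TALDO1 lost its call (adjusted p = 0.0706 by DESeq2) and TKT turned from 0.06 to -0.04. The median log2 fold change of tested genes within 10 Mb was -0.24 for PGD and -0.20 for RPE. Of 16 tricarboxylic acid cycle genes, 12 passed, 5 higher and 7 lower (median -0.05), close to the 68%, 29.7% and 38.3% of abundant genes, among them SDHB (-0.42) and FH (-0.39), the succinate dehydrogenase iron-sulfur subunit and fumarase. The median of tested genes within 10 Mb was -0.15 for SDHB and -0.23 for FH. Whether neighbours bear on the values of PGD, RPE, SDHB and FH was not tested. Of 3 tested genes of gluconeogenesis and anaplerosis, G6PC3 (0.27) and PCK2 (0.26) rose, and both lost their calls after correction for GC content and length (adjusted p = 0.0624 and 0.16).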

How the data were processed

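RNA was sequenced from 3 GFP libraries and 3 libraries labelled T-MGM of WM164 cells. Per the labels and the study's methods, the authors trimmed reads with cutadapt 1.8.1, aligned them to GRCh38 with STAR 2.7.7a and deposited raw counts of uniquely aligned reads per gene (featureCounts) and TPM from RSEM 1.3.0; the annotation release is not given in the sources used here. Library totals of 35057239 to 59250663 counts set the precision, and floors cover counting error only.

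Counts were fitted over all genes with DESeq2 1.42.0 (R 4.3.3; two-sided Wald test on group, median-of-ratios size factors, local dispersion trend, no shrinkage, independent filtering at 0.05), with Benjamini-Hochberg adjustment over all genes tested. Normalized counts are counts divided by size factors. edgeR 4.0.16 and limma 3.58.1 (log2 of TPM + 1, genes of at least 0.5 TPM) were alternatives. On simulated data of 32338 genes for this comparison, DESeq2 recovered 81% of changes of 0.5 and 96% of changes of 1 (log2), and called 31 unchanged genes. GC content, neighbours and positions came from GENCODE 44, which held 99.4% of the gene IDs; promoters came from RefSeq.

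The 30 genes and the lists around them were chosen with earlier results of these data known. By rule, every member was named, and all library values were given for members that passed with an absolute log2 fold change of at least 0.4 and for GAPDH, PKM, LDHA, LDHB and HK2; of the other lists, passing genes beyond 0.5 were named, or else the 2 with the smallest p. Further names and library values were chosen after the values were seen. PGLS was not analysed here. Replicate numbers were checked for pairing and did not pair the samples.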

Additional observations from a re-analysis of the deposited data

How the results depend on the processing

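Over 29 genes and 18 alternatives (522 values), 458 kept their direction and side of the threshold, 43 lost the call, 4 gained one and 17 reversed; 16 genes kept both throughout and 25 never reversed. The number passing was 27 with edgeR, 28 with TMM factors, 25 with total counts, 20 on TPM with either pseudocount, 18 on TPM with no filter, 23 on TPM over protein-coding genes and 24 to 27 with 1 library left out. TPM over protein-coding genes and the fit with GC content, length and replicate block together were chosen after seeing the data.

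The median log2 fold change of the genes (0.30) was 0.31 with TMM factors, 0.25 with total counts, 0.157, 0.16 and 0.157 on TPM with pseudocount 1, pseudocount 0.1 and no filter, 0.23 on TPM over protein-coding genes, 0.27 with GC content and length, 0.27 with GC content, length and replicate block, and 0.30 to 0.33 with 1 library left out. HK2 reversed with total counts (-0.0044) and on the 3 TPM settings (-0.04493, -0.04586 and -0.04493), ENO1 on TPM (-0.03109, -0.03111 and -0.03109) and PDHA1 on TPM (-0.03022, -0.03081 and -0.03022). PFKFB2, which did not pass, reversed with TMM factors (0.0065), with GC content and length (0.057), with the replicate block added (0.056) and with 1 library left out (-0.0659 to 0.0359). Taken from counts, differences in share were -4.66 points for HK2, 9.94 for PFKFB4, 2.01 for ENO2, 6.11 for LDHA and 4.89 for PDK2. The causes were not tested.

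Replicate numbers are shared between groups, but same-numbered libraries did not deviate together (r of -0.0067, -0.06 and 0.03), and none correlated best with its own number. With the replicate block, 25 genes passed (median 0.30), 1 past 2-fold, and 29 of the surrounding genes passed against 33 without it. With GC content and length also corrected, 24 and 19 passed. Depth limits PDK4, and 3 libraries a group limit the isoenzyme ratios.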
